A study of Mus musculus with 102 samples.

Results

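Spleens of 3 mice labelled mTOR were compared with spleens of 3 mice labelled WT, all of them 5 months old, all male and all carrying BL6J in their titles. The question the design puts is which transcripts differ in the spleen of young adult mice of the mTOR genotype. These 6 libraries are among 102 RNA sequencing samples in the series, and they stand in a table of 12 spleens whose other 6 came from animals of 21 or 23 months, 3 WT and 3 mTOR. All genes with a normalized read count of at least 10 in at least 3 of the 12 libraries were compared, which left 15512 of 51810. The labels name the genotype but describe neither the allele nor the promoter or cells in which it acts, so nothing more is known here of how the mTOR animals model reduced or altered mTOR. No treatment is given for either genotype, and no batch is named.

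mTOR is a protein kinase that joins signals from growth factors, amino acids and energy supply. In complex 1, with Raptor, it promotes protein synthesis, ribosome and lipid production and restrains autophagy, and in complex 2, with Rictor, it phosphorylates kinases such as Akt. In lymphoid organs mTOR activity is known to support the growth of activated lymphocytes, germinal centre B cells, antibody-secreting plasma cells and effector T cells, while naive lymphocytes rest with little of it.

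The 5-month libraries held 8560405 to 10347823 reads in genes, and 19886 to 20454 genes had at least 1 read. Values below are normalized read counts, listed for replicates 1, 2 and 3 of a group in that order. Fold changes are log2 differences, mTOR minus WT, of the value plus 1, with the SE of the model and the limma p-value adjusted by Benjamini-Hochberg over all genes compared. A gene is called where that adjusted p is under 0.05. The first principal component of all 12 spleens, with 23.0% of the variance, separated WT from mTOR at both ages. B-cell genes, T-cell genes and red pulp macrophage genes were present in all libraries, as in spleen. Genes of the exocrine pancreas, an organ that touches the spleen, summed to 134, 4960 and 1930 in WT and to 15384, 75.1 and 26448 in mTOR. Genes that all cells use, such as B2m and Rpl24, are listed at exactly 0 in every library, as are Ms4a1, Foxp3 and Igkc, and no level is read from such entries.

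Mtor itself, on chromosome 4 (GRCm38, 148448611 to 148557683, plus strand), stood at 326, 339 and 368 in WT and at 218, 242 and 286 in mTOR. Every mTOR spleen was below every WT spleen. The log2 difference was -0.47 ± 0.13 (SE, n = 3 per group), with a limma adjusted p of 0.0832, so Mtor was not called. edgeR on the recovered reads gave 0.0862 and DESeq2 gave 0.0325, past the threshold. In the old animals the difference was -0.42 (limma adjusted p = 0.133), with 346, 342 and 330 in WT and 230, 256 and 276 in mTOR. Reads over the whole gene are counted, and since the labels do not say which part of it the genotype changes, this level is only a limited check of the labels.

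The other 10 components of the mTOR complexes were not called either. Their list of 11 had a median log2 difference of 0.15, against 0.01 over all genes compared, with 2 members higher and 2 lower at an unadjusted limma p under 0.05, none called by edgeR and only Mtor by DESeq2. Deptor, an inhibitor bound to both complexes, was at 214, 294 and 173 in WT and 316, 426 and 305 in mTOR (log2 0.64, limma adjusted p = 0.155). Rictor, the defining subunit of complex 2, was at 788, 1045 and 782 in WT and 1123, 1165 and 1109 in mTOR (log2 0.39, limma adjusted p = 0.109). For both genes the groups did not overlap, nor did they for Mtor and Mapkap1, which were lower. The share of all genes without overlap is not given here, and 19.4% of all genes had an unadjusted limma p under 0.05. The lack of overlap is thus no separate support for a difference in these uncalled genes. Rptor, which encodes Raptor, differed by 0.20, the assembly factor Telo2 by 0.32, its partner Tti1 by 0.07, the substrate Akt1s1 by 0.15 and the shared subunit Mlst8 by 0.24. The complex 2 subunits Mapkap1, Prr5 and Prr5l differed by -0.28, -0.13 and -0.07. The sign of Mlst8, Akt1s1, Prr5 and Prr5l turned when 1 library was left out.

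Of the 15512 genes, limma called 284 (1.83%), 72 higher (0.464%) and 212 lower (1.37%) in mTOR. At an unadjusted p under 0.05 there were 3015 (19.4%). edgeR called 286 (1.84%), and DESeq2 called 910 (5.87%), with the 284 of limma all among them. The called differences were at least 0.47 on the log2 scale, and 174 genes passed 2-fold, 41 higher and 133 lower. In none of the 284 did the groups overlap, but the genes were chosen by their difference in these same spleens, so this is no separate support. The fit borrows its spread from all 12 spleens, and with the 6 young spleens alone it called 236. The 9 other WT spleens of 5 months in the series were normalized apart and serve only for their spread. Over these 9, the SD of the log2 value was smaller than the difference for 279 of the 284 genes, with a median SD of 0.42. The called differences had a median size of 1.17. Since the genes were chosen by those differences, this count is no separate support for the calls.

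The number of calls depended on which animals were kept. It was 112, 95 and 97 without mTOR replicate 1, 2 or 3, 152 without WT replicate 1, and 382 and 333 without WT replicate 2 or 3. In all 6 of these fits 74 of the 284 genes were called. Below, a gene is said to hold where it passed in all 6.

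**Figure D1:**
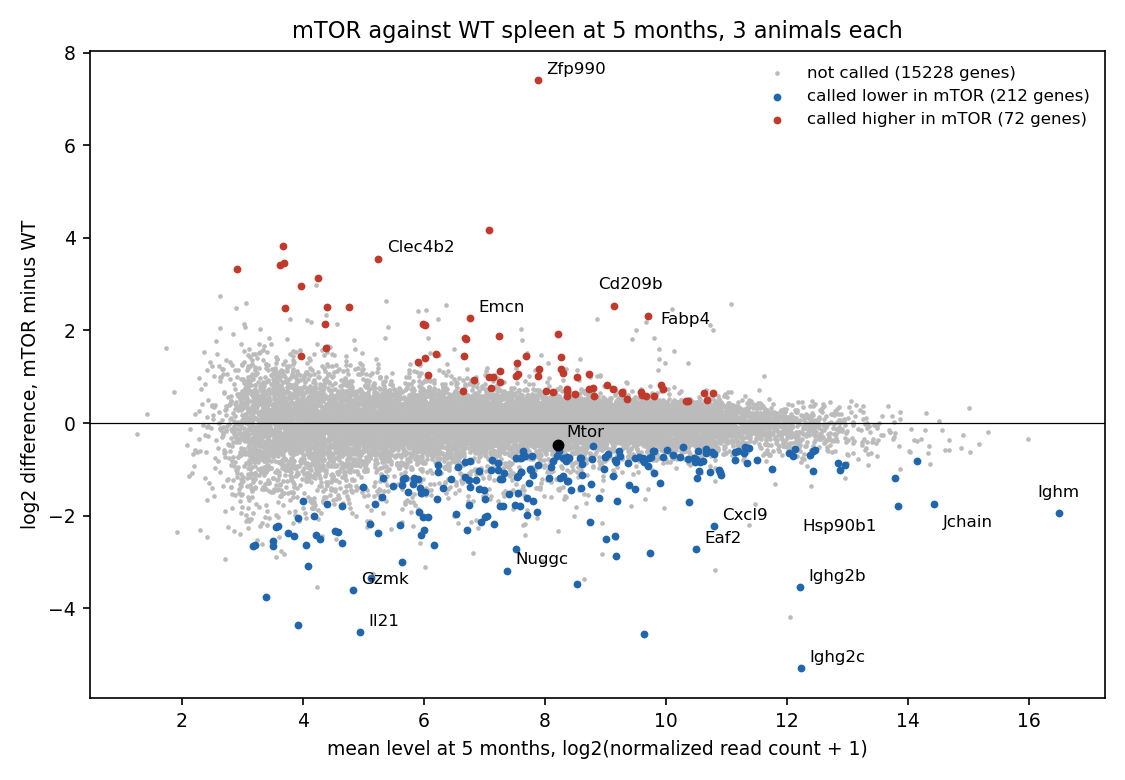
Each point is 1 of the 15512 genes, with its mean level over the 6 young spleens on the x axis (log2 of the normalized count plus 1) and the log2 difference, mTOR minus WT, on the y axis. The 72 genes called higher and 212 called lower are coloured, and the 15228 others are grey around 0.

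Antibody genes were among the largest falls. Ighg2b, the constant region of IgG2b heavy chains, was at 5035, 7596 and 13646 in WT and at 962, 668 and 510 in mTOR (log2 -3.54 ± 0.47, limma adjusted p = 0.00287). Ighg2c was at 8775, 9194 and 9928 in WT and at 684, 165 and 114 in mTOR (log2 -5.30 ± 0.74, limma adjusted p = 0.00346). The lowest WT spleen was thus more than 5 times the highest mTOR spleen for both. Ighg constant regions are close copies of each other, so reads may have been shared or lost among them in counting. In a whole organ, fewer cells of a type and less RNA per cell cannot be told apart, here and for the lists that follow.

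Ighm, the IgM heavy chain that naive B cells also make, fell from 82724, 134904 and 226633 to 39022, 33438 and 33801 (log2 -1.95, limma adjusted p = 0.0309). Ighg1 fell by 2.82 (limma adjusted p = 0.0393). The joining chain Jchain, which links IgM and IgA into polymers, fell from 26316, 45037 and 30827 to 12374, 7968 and 9694 (log2 -1.75 ± 0.25, limma adjusted p = 0.00421). Not all heavy chains moved. Ighd was at 7641, 6255 and 5733 in WT and 8964, 6775 and 7209 in mTOR (log2 0.23), and Igha differed by 0.22. Ighg3 ranged from 1478 to 15817 in WT and from 695 to 19533 in mTOR, so that the groups overlapped over the whole range. Ighg2b, Ighg2c and Jchain held. Ighg1 passed only without mTOR replicate 2 and was missed by edgeR (adjusted p = 0.0643), and Ighm passed only without WT replicate 1 (up to 0.121, without mTOR replicate 2).

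Over the 10 genes that could be compared among the constant genes and Jchain, 5 were called lower and 0 higher, with a median of -1.77. Their sum lay between 135500 and 302660 in WT and between 52818 and 84141 in mTOR. Variable segments, which are used by particular clones, showed a similar tilt: 6 of 89 heavy and 5 of 83 kappa segments were called lower and none higher, with medians of -1.42 and -1.06. At an unadjusted limma p under 0.05, 35 heavy segments were lower and 1 higher, and 26 kappa segments were lower and 0 higher. These families were grouped after the results were known.

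Of 14 plasma cell genes 5 were called lower and 0 higher (11 and 0 at an unadjusted limma p under 0.05, 5 by edgeR, 7 by DESeq2), with a median of -1.29, and 3 of the 5 are Ighg2b, Ighm and Jchain. Fkbp11, a prolyl isomerase of the secretory pathway, fell from 101, 107 and 90.9 to 31.9, 15.8 and 26.5 (log2 -2.02, limma adjusted p = 0.00449) and held. Prdm1, which encodes the plasma cell regulator Blimp-1, fell by 1.15 (limma adjusted p = 0.0402) but passed only without WT replicate 1 (up to 0.159). The plasma cell surface proteoglycan Sdc1 was at 219.5, 350.7 and 769.5 in WT and 181, 125 and 133 in mTOR (log2 -1.42, limma adjusted p = 0.118), and Xbp1, the transcription factor of the secretory program, differed by -0.98 (0.138).

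Of 18 genes for the folding of secreted proteins in the endoplasmic reticulum and its stress response, 5 were called lower and 0 higher (14 and 0 at an unadjusted limma p under 0.05, 5 by edgeR, 10 by DESeq2). The median was -0.76, with all 18 below 0. Hsp90b1, the chaperone GRP94, fell from 26585, 23282 and 18074 to 8015, 5542 and 6102 (log2 -1.79 ± 0.19, limma adjusted p = 0.00126). Hspa5, the chaperone BiP, fell from 9564, 9778 and 10791 to 5457, 4134 and 5386 (log2 -1.02 ± 0.17, limma adjusted p = 0.00912). For each gene the WT spleens lay well above the mTOR spleens, and the spread within a group was smaller than the gap between groups. Both genes were called in these same spleens, so this is no separate support.

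Creld2, a disulfide isomerase induced by unfolded proteins, fell by 1.68 (limma adjusted p = 0.019), the disulfide isomerase Pdia3 by 0.65 (0.027) and the BiP co-chaperone Dnajc3 by 0.66 (0.0283). Calr, encoding calreticulin, came close (log2 -0.88, limma adjusted p = 0.0507). Hsp90b1 held. Hspa5 lost the call without mTOR replicate 2 (0.0532), and Creld2 lost it without mTOR replicate 2 (0.0902) or 3 (0.0644). Pdia3 and Dnajc3 lost it without WT replicate 1 (0.0677 and 0.0736) and without any mTOR replicate (up to 0.131 and 0.104), and Pdia3 with the young spleens alone (0.0523). Ern1, the sensor IRE1, did not differ (log2 0.02, limma adjusted p = 0.982). Other secretory genes among the calls, chosen after their values were seen, were the signal peptidase subunit Sec11c (-0.99), Ckap4 (-1.19), the transporter Slc35b1 (-1.13), the selenoprotein Selenos (-0.85), the ribosome-binding protein Rrbp1 (-0.55) and Os9 (-0.63), a lectin of ER-associated degradation. Of these, Rrbp1 lost the call without mTOR replicate 2 (0.082) or 3 (0.0745) and Os9 without mTOR replicate 2 (0.0674).

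The 250 bases before the RefSeq start sites of these genes (GRCm38.p6) were searched for the ER stress response element, which is CCAAT, 9 bases of any kind and CCACG, on both strands. It occurred in 29 of 20138 mouse genes with a window (0.144%) and in 8 of the 16 list members with one (50%). All list members were below 0, also Calr, Canx, Pdia6 and Syvn1, which carried the element and were not called. Of the 5 members called lower 4 carried the element (80%), Pdia3 being the one without. Among all genes called lower it was in 4 of 146 (2.74%), the same 4, and among genes called higher in 0 of 50. No match overlapped one of the interferon motifs searched below. A match is a description of letters and not a test of binding. The matches in Hspa5 (chr2:34772025-34772043, plus strand) and Hsp90b1 (chr10:86705638-86705656 and chr10:86705533-86705551, minus strand) are given alone, and the whole windows of Creld2 (chr15:88819396-88819645, plus strand) and Dnajc3 (chr14:118937682-118937931, plus strand) show where it sits. Capitals mark the element, which starts 126 bases before the Creld2 start site, on the opposite strand, and 105 before that of Dnajc3.
Hspa5 element: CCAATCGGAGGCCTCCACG
Hsp90b1 element, distal: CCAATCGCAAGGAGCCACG
Hsp90b1 element, proximal, opposite strand: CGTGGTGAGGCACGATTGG
Creld2: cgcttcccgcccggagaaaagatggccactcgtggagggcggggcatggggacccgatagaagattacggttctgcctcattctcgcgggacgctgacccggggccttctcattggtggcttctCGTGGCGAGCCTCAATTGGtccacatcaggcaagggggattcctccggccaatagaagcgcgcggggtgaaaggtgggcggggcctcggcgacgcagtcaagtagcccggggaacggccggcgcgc
Dnajc3: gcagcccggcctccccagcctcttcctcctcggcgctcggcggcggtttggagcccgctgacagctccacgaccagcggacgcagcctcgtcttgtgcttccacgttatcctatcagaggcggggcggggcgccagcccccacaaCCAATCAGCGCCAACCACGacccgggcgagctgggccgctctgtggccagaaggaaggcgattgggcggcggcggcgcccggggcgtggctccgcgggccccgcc

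Of 10 germinal centre genes 3 were called lower and 0 higher (7 and 0 at an unadjusted limma p under 0.05, 3 by edgeR, 5 by DESeq2), with a median of -1.15. Nuggc, a nuclear GTPase expressed in germinal centres, fell from 322, 295 and 267 to 32.8, 19.5 and 47.7 (log2 -3.19 ± 0.37, limma adjusted p = 0.00161). Mybl1, the germinal centre factor A-MYB, fell from 310, 463 and 185 to 47.0, 51.0 and 37.1 (log2 -2.71 ± 0.33, limma adjusted p = 0.00174). S1pr2, the receptor that keeps B cells within germinal centres, fell from 193, 231 and 157 to 68.3, 64.9 and 49.8 (log2 -1.65, limma adjusted p = 0.00157). All 3 held.

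Bcl6, which is also made outside germinal centres, overlapped between groups (log2 -0.22, limma adjusted p = 0.683). Eaf2, an elongation factor partner abundant in germinal centre and plasma cells and not a list member, had the second smallest limma p of the named genes. It was at 2581, 2474 and 2439 in WT and at 560, 291 and 328 in mTOR (log2 -2.72 ± 0.26, limma adjusted p = 0.000465) and held.

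Of 13 general B cell genes 0 were called by limma, edgeR or DESeq2 (2 higher and 1 lower at an unadjusted limma p under 0.05), and the median was -0.02. Follicular and marginal zone B cell genes had medians of 0.18 and 0.19, with 0 of 8 and 0 of 12 called by limma, edgeR or DESeq2 (0 and 1 at an unadjusted limma p under 0.05). Of 10 B1 and atypical B cell genes 3 were called lower and 0 higher (6 and 1 at an unadjusted limma p under 0.05, 3 by edgeR, 5 by DESeq2), with a median of -0.69 and 8 below 0. The 3 called genes are also known from T cells. Tbx21, the factor T-bet of type 1 T cells and atypical B cells, fell from 437, 325 and 357 to 138, 184 and 172 (log2 -1.18, limma adjusted p = 0.00801) and held. The transcriptional repressor Zbtb32 fell by 1.19 (limma adjusted p = 0.0105; 0.0532 without mTOR replicate 2) and Ctla4, an inhibitory receptor of T cells, by 1.12 (0.0264). Ctla4 lost the call without WT replicate 2 (0.0598) or mTOR replicate 2 (0.0663) or 3 (0.0899) and with the young spleens alone (0.0518).

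Of 16 general T cell genes 0 were called by limma or edgeR and 1 by DESeq2 (0 higher and 3 lower at an unadjusted limma p under 0.05), with a median of -0.26. Cd3e, a chain of the T cell receptor complex, was at 942, 640 and 1011 in WT and at 504, 799 and 719 in mTOR, and overlapped. Cd4 differed by -0.35 and Cd8a by 0.70 (limma adjusted p = 0.221 and 0.239). The 11 naive T cell genes had a median of 0.14, with 0 called by limma or edgeR and 1 by DESeq2 (2 higher and 0 lower at an unadjusted limma p under 0.05).

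Among regulatory and follicular helper T cell genes 6 of 11 were called lower and 0 higher (7 and 0 at an unadjusted limma p under 0.05, 6 by edgeR and 6 by DESeq2), with a median of -1.12. Il21, the cytokine with which follicular helper T cells drive B cells, was at 31.0, 87.7 and 53.8 in WT and at 5.32, 0 and 1.06 in mTOR (log2 -4.52 ± 0.63, limma adjusted p = 0.00337). Icos, the costimulatory receptor of these cells, fell from 732, 469 and 485 to 207, 223 and 196 (log2 -1.40 ± 0.17, limma adjusted p = 0.00174). Il10, an inhibitory cytokine, fell by 2.59 (limma adjusted p = 0.00695) to values of 4.24 to 10.7. Icos, Il21 and Il10 held, and as in all called genes the groups did not overlap. Tnfrsf4, the receptor OX40, fell by 1.36 (limma adjusted p = 0.0184) but passed only without WT replicate 2 or 3 (up to 0.0749), and the regulatory T cell factor Ikzf2 fell by 1.23 (0.0219), losing the call without WT replicate 1 (0.0736) or mTOR replicate 2 (0.0663) or 3 (0.0899). Icosl, which encodes the ligand of ICOS and is no list member, was chosen after its value was seen: it rose by 0.65 (limma adjusted p = 0.0175), and lost the call without any mTOR replicate (up to 0.0832).

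Of 16 effector and exhausted T cell genes 7 were called lower and 0 higher (12 and 0 at an unadjusted limma p under 0.05, 7 by edgeR, 9 by DESeq2), with a median of -1.17. Gzmk, a granzyme of memory and exhausted CD8 T cells, was at 65.4, 43.8 and 43.8 in WT and at 6.21, 0.93 and 4.24 in mTOR (log2 -3.61 ± 0.57, limma adjusted p = 0.00685). The inhibitory receptor Tigit fell from 146, 188 and 260 to 59.5, 44.5 and 30.7 (log2 -2.13, limma adjusted p = 0.0071), and Lag3, another, by 1.16 (0.00835). Gzmk, Tigit and Lag3 held, as did Tbx21 above. Pdcd1, encoding PD-1, fell by 2.34 (limma adjusted p = 0.0274) and the exhaustion factor Tox by 1.18 (0.0144). Pdcd1 passed only without WT replicate 2 or mTOR replicate 1 (up to 0.106), and Tox lost the call without mTOR replicate 2 (0.0535) or 3 (0.0667). The chemokine Ccl4 fell by 2.38 (limma adjusted p = 0.0144), and lost the call without WT replicate 1 (0.0609) or mTOR replicate 1 (0.0553) or 3 (0.0655). Ccl5 (log2 -0.85) and the granzymes Gzma (-1.87) and Gzmb (-1.10) were not called. Of 15 natural killer cell genes limma called 0, edgeR 1 and DESeq2 5, all lower (7 at an unadjusted limma p under 0.05), with a median of -0.69.

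**Figure D2:**
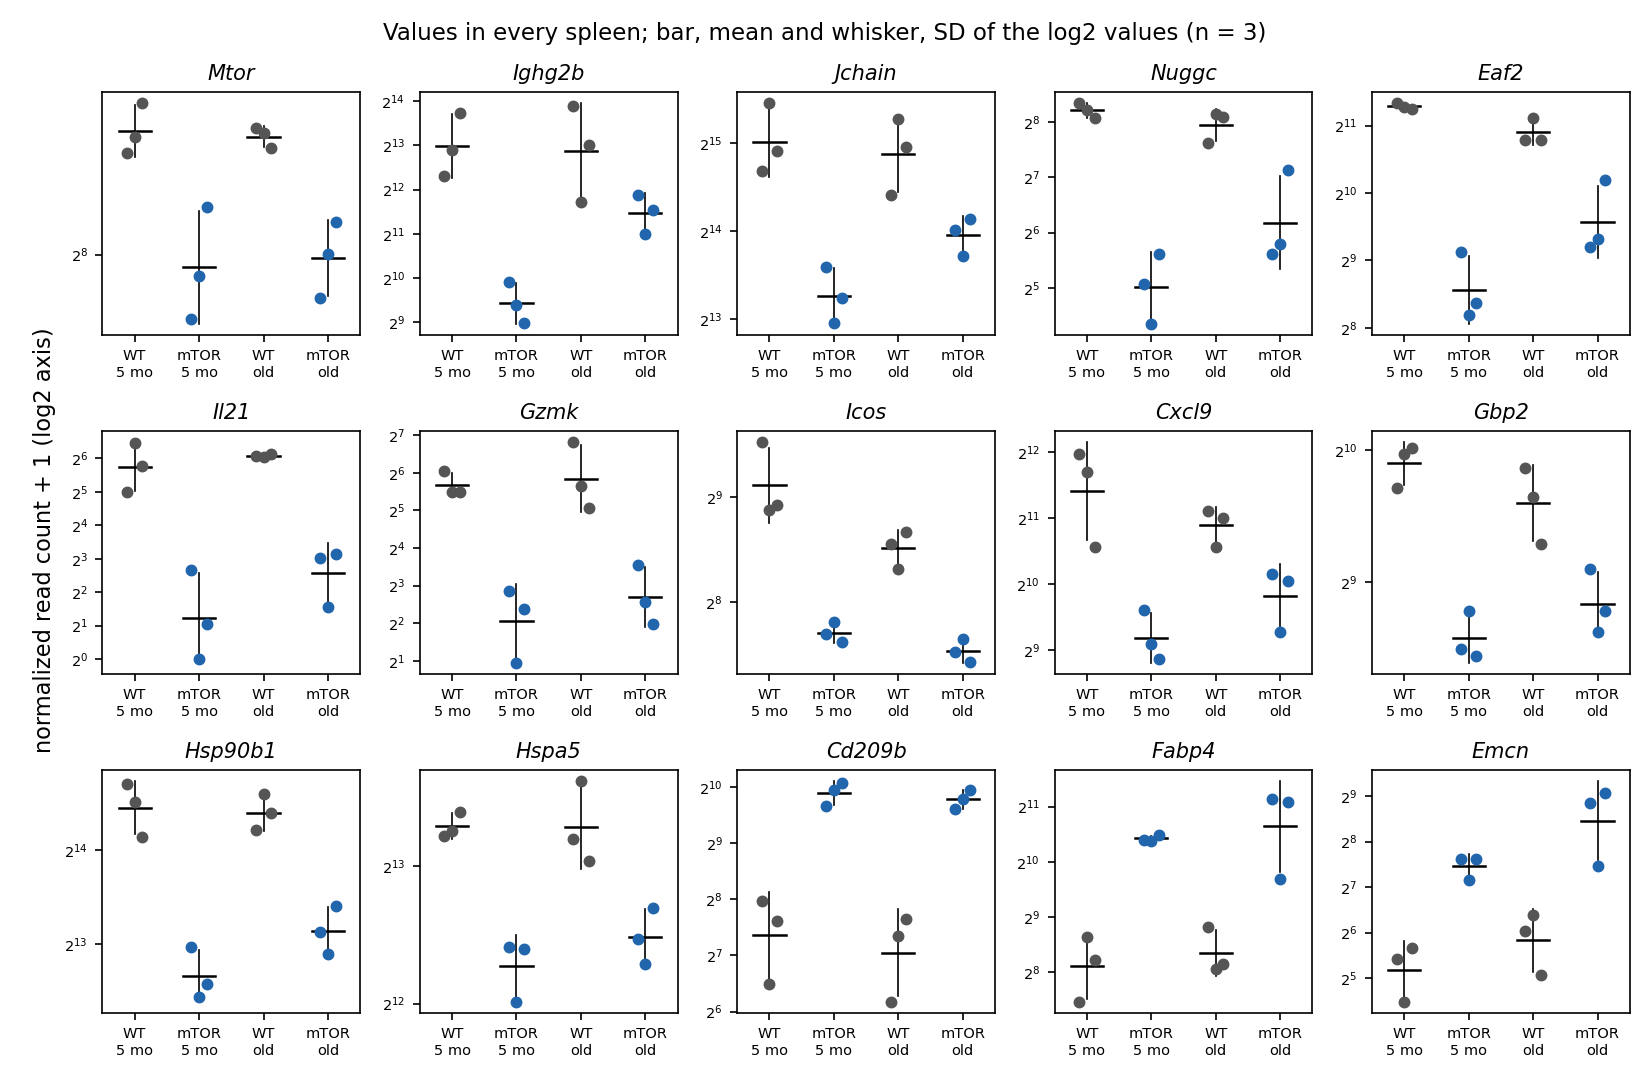
Normalized counts of 15 genes in each of the 12 spleens, on a log scale of the count plus 1, with WT and mTOR at 5 months beside WT and mTOR at 21 to 23 months; each point is 1 animal, each bar the mean and each whisker the SD of the log2 values (n = 3). The 5-month groups do not overlap in any of the 15 genes. All but Mtor were chosen as genes called in these same spleens, and Mtor was not called. The lack of overlap is thus no separate support for a difference, and its share over all genes is not given here.

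Of 25 interferon-inducible genes 4 were called lower and 0 higher (9 and 0 at an unadjusted limma p under 0.05, 4 by edgeR, 6 by DESeq2), with a median of -0.38. Gbp2, a guanylate-binding protein induced by interferon-gamma, fell from 840, 1003 and 1035 to 359, 440 and 346 (log2 -1.33 ± 0.17, limma adjusted p = 0.00244). Gbp3 fell from 1365, 1421 and 1327 to 810, 900 and 840 (log2 -0.69 ± 0.11, limma adjusted p = 0.00666). The nucleic acid sensor Zbp1 fell by 1.01 (limma adjusted p = 0.00555) and the oligoadenylate synthetase Oas1a by 0.81 (0.0448). Gbp2, Gbp3 and Zbp1 held. Oas1a passed only without WT replicate 3 (up to 0.143), and was lost with the young spleens alone (0.081) and without the filter on low values (0.0617). Mx1, a gene of the type I interferon response, overlapped between groups (log2 0.07, limma adjusted p = 0.893).

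Further genes inducible by interferon-gamma were chosen after their values were seen. Irf1, a transcription factor, fell from 888, 886 and 787 to 472, 457 and 467 (log2 -0.87 ± 0.12, limma adjusted p = 0.00296) and held. Cxcl9, a chemokine for activated T cells, fell from 4028, 3314 and 1518 to 778, 541 and 465 (log2 -2.23 ± 0.33, limma adjusted p = 0.00509) and held, and its receptor Cxcr3 fell by 1.40 (0.0378), which passed only without WT replicate 2 (up to 0.155). Iigp1, an immunity-related GTPase, fell by 1.70 (limma adjusted p = 0.0161), and lost the call without WT replicate 1 (0.057) or mTOR replicate 3 (0.0708). In the family of these GTPases and the guanylate-binding proteins, 5 of the 11 that could be compared were called lower and 0 higher, while 8 others of its 19, Igtp and Ifi47 among them, are listed at 0 in every library.

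Genes of the MHC class I pathway, which shows peptides to CD8 T cells, were all below 0. Of 12, 6 were called lower (11 at an unadjusted limma p under 0.05, 6 by edgeR, 10 by DESeq2), with a median of -0.62. Nlrc5, the transactivator of class I genes, fell from 2109, 2133 and 1736 to 1217, 1063 and 1098 (log2 -0.82, limma adjusted p = 0.00895; 0.0532 without mTOR replicate 2). Psmb9, an immunoproteasome subunit, fell from 919, 794 and 998 to 558, 519 and 530 (log2 -0.75, limma adjusted p = 0.00808) and held. The peptide transporter Tap1 fell by 0.55 (limma adjusted p = 0.0326; passing only without WT replicate 1 or 2, up to 0.122) and the heavy chain genes H2-Q4, H2-Q6 and H2-T22 by 0.61, 0.69 and 0.80. H2-Q4 lost the call without WT replicate 1 (0.054) or mTOR replicate 1 (0.0877) or 3 (0.0745) and with the young spleens alone (0.0622), H2-Q6 without any mTOR replicate (up to 0.0915), and H2-T22 in all but the fit without WT replicate 2 (up to 0.151). These heavy chain genes are close copies, so their reads may have been split. The classical H2-K1 (-0.64, limma adjusted p = 0.0627) and H2-D1 (-0.48, 0.103) were not called. Of 7 constitutive proteasome beta genes 0 were called by limma, edgeR or DESeq2, and 0 reached an unadjusted p under 0.05 (median -0.08). MHC class II genes had a median of 0.20, with 0 of 9 called by limma, edgeR or DESeq2 (1 higher at an unadjusted limma p under 0.05).

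The same windows were searched on both strands for the interferon-stimulated response element, which is TTTC, 2 bases of any kind and TTTC, and the gamma-activated sequence, TTCNNNGAA. The first was found in 2.99% of all 20138 genes, in 10 of 18 windows of the interferon list (55.6%), in 3 of 3 of its called members with a window (Gbp2, Gbp3 and Oas1a) and in 6.85% of genes called lower against 4% of genes called higher. The gamma-activated sequence was found in 6.74% of all genes, in 12.3% of those called lower and in 8% of those called higher. It was in 3 of 18 windows of the interferon list. Of 10 windows of the MHC class I list it was in 1, that of Psmb8, which was not called. The response element was also in 1 of these 10, that of H2-T22. Over the genes compared the shares were 2.88% for the response element and 5.96% for the gamma-activated sequence. Gbp3 (chr3:142559794-142560043, plus strand) carries 2 response elements that share bases, which start 45 and 39 before its start site, and Irf1 (chr11:53769764-53770013, plus strand) carries a gamma-activated sequence that starts 90 bases before its own. Capitals mark these matches.
Gbp3: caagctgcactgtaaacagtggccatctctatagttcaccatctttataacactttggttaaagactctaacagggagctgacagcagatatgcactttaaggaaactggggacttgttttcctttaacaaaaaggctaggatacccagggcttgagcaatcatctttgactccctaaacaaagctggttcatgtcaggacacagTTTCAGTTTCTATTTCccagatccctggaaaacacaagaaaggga
Irf1: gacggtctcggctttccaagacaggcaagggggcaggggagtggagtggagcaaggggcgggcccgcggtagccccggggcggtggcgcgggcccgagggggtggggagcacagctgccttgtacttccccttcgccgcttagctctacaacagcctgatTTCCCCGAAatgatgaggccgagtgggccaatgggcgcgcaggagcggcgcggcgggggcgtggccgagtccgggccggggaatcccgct

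The lists of marginal zone macrophages, red pulp macrophages and monocytes had 1 call each, the first higher and the others lower. Cd209b, the C-type lectin SIGN-R1 of marginal zone macrophages, rose from 249, 88.7 and 195 to 806, 979 and 1076 (log2 2.53 ± 0.37, limma adjusted p = 0.00466). It was the only 1 of 7 genes of its list that was called, and the list median was 0.02. Marco, a scavenger receptor of the same cells, was higher in all mTOR spleens without passing (log2 1.01, limma adjusted p = 0.119). Fcgr4, an activating receptor for IgG2 antibodies, fell from 1735, 567.7 and 630 to 138, 145 and 195 (log2 -2.43 ± 0.39, limma adjusted p = 0.00771). Fcgr4 was the 1 called gene of 17 in the monocyte list, whose median was -0.33. Mmp12, the macrophage elastase, rose from 69.9, 57.7 and 62.8 to 209, 253 and 251 (log2 1.89 ± 0.25, limma adjusted p = 0.00296). Clec4b2, a C-type lectin gene, rose from 1.11, 8.55 and 8.97 to 74.5, 67.7 and 61.4, while its neighbour in the family, Clec4b1, overlapped (log2 -0.13, limma adjusted p = 0.895). Mmp12 and Clec4b2 are members of none of these lists. Cd209b, Fcgr4, Mmp12 and Clec4b2 held. Of 16 red pulp macrophage genes only the complement gene C1qb was called (log2 -0.79, limma adjusted p = 0.0283), and it passed only without WT replicate 2 (up to 0.125).

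Several genes known from blood vessels rose. Emcn, the sialomucin endomucin of venous and capillary endothelium, rose from 42.1, 21.4 and 49.4 to 195, 141 and 196 (log2 2.27 ± 0.44, limma adjusted p = 0.021). Sele, encoding E-selectin, rose from 18.9, 36.4 and 15.7 to 105, 81.6 and 119 (log2 2.13, limma adjusted p = 0.0105). Btnl9, a butyrophilin-like gene, rose from 208, 166 and 132 to 448, 412 and 481 (log2 1.42 ± 0.22, limma adjusted p = 0.00685). The apelin receptor Aplnr rose by 1.82 (limma adjusted p = 0.0223) and Cd34, a sialomucin of endothelium and progenitors, by 1.03 (0.0283). Btnl9 held. Emcn passed only without WT replicate 3 (up to 0.082), Sele lost the call without mTOR replicate 3 (0.0568), Aplnr without WT replicate 1 (0.0628) or any mTOR replicate (up to 0.0849), and Cd34 in all but the fit without WT replicate 2 (up to 0.125) and with the young spleens alone (0.059).

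Emcn was the 1 called gene of 15 in the endothelial list, whose median was 0.37, with 6 higher and 1 lower at an unadjusted limma p under 0.05. The pan-endothelial Pecam1 was at 5442, 4096 and 4423 in WT and at 5003, 5087 and 5289 in mTOR (log2 0.15, limma adjusted p = 0.565). Fabp4, a fatty acid binding protein of capillary endothelium, macrophages and fat cells, rose from 175, 396 and 297 to 1353, 1333 and 1429 (log2 2.32 ± 0.36, limma adjusted p = 0.0066) and held. It was the 1 called gene of the 9 adipocyte genes, whose median was -0.51, and the fat cell genes Adipoq and Plin1 stayed at or under 15.7 and 23.6 in every young spleen. Also among the largest increases were the glycosyltransferase Galnt15 (log2 2.11, limma adjusted p = 0.00685), which held, the ryanodine receptor Ryr2 (1.48, 0.0175) and the peroxidasin Pxdn (1.40, 0.0308). Ryr2 lost the call without WT replicate 1 (0.0642) or mTOR replicate 1 (0.078) or 2 (0.0905), and Pxdn in all but the fit without WT replicate 2 (up to 0.114). Chosen after their values were seen, the basement membrane proteoglycan Hspg2 (1.09), the lectin-like Cd300lg (1.29) and the factor Bcl6b (1.01), all known from endothelium, were called higher too. Hspg2 and Cd300lg lost the call without WT replicate 1 or mTOR replicate 1 or 2 (up to 0.0703 and 0.0963), and Bcl6b passed only without WT replicate 2 (up to 0.156).

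Of 14 splenic stroma genes 3 were called lower and 0 higher, with a median of -0.20 and 5 above 0. At an unadjusted limma p under 0.05, 4 were lower and 1 higher, and edgeR called 3 lower and DESeq2 4. Over all genes compared limma called 1.37% lower. In the old animals the median of the list was 0.10. Grem1, a BMP antagonist of fibroblastic stroma, fell from 201, 147 and 146 to 55.0, 51.0 and 36.0 (log2 -1.78, limma adjusted p = 0.00281), and Tnfsf11, the cytokine RANKL, from 112, 98.4 and 119 to 36.4, 50.1 and 22.2 (log2 -1.64, limma adjusted p = 0.0103). Both held. Clu, clusterin, of follicular dendritic cells, fell by 0.60 (limma adjusted p = 0.0408), passed only without WT replicate 1 or 3 (up to 0.183), and was lost with the young spleens alone (0.102) and without the filter on low values (0.0705). Sostdc1, a secreted antagonist of BMP and Wnt signals that follicular helper T cells also make, fell from 93.1, 110 and 108 to 16.9, 19.5 and 19.1 (log2 -2.43, limma adjusted p = 0.00392) and held. The B cell chemokine Cxcl13 of follicular stroma did not differ beyond the spread (log2 -0.12, limma adjusted p = 0.69).

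**Figure D3:**
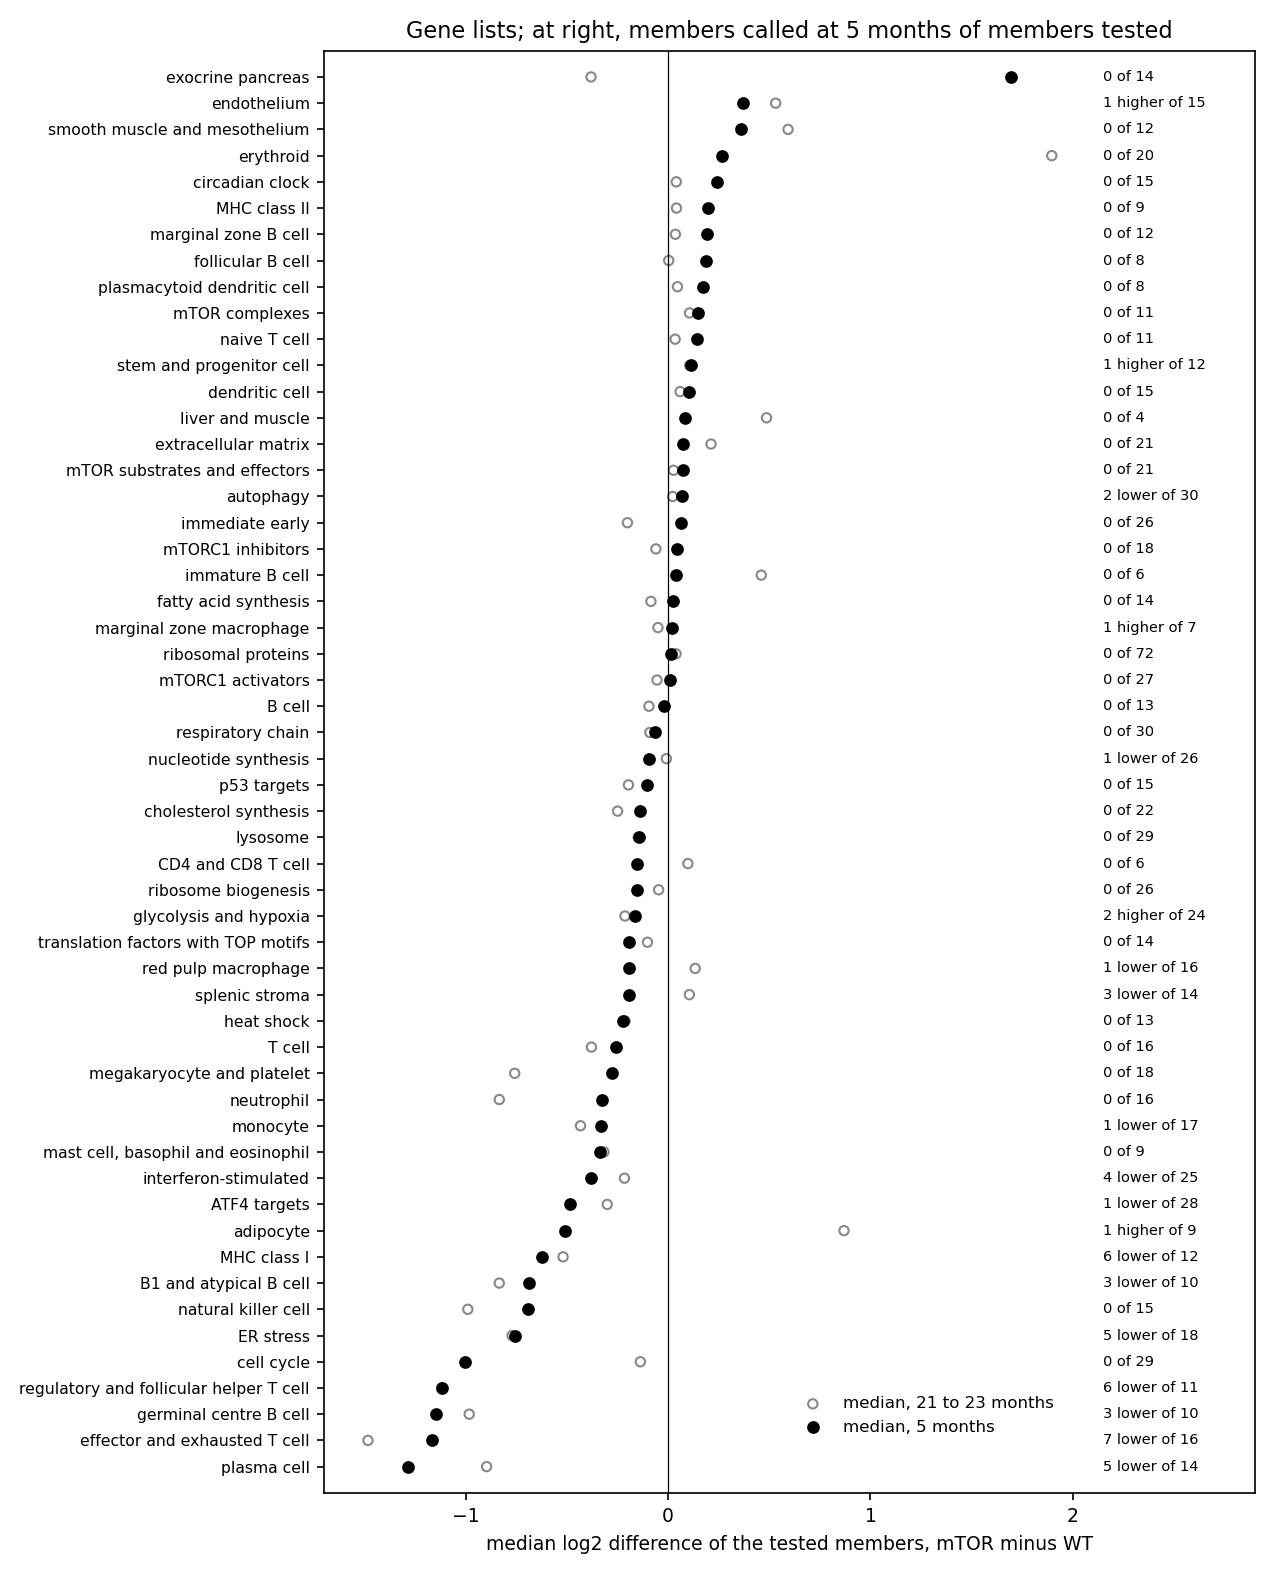
Median log2 difference, mTOR minus WT, of the tested members of 54 gene lists at 5 months and at 21 to 23 months, with the number of members called higher and lower at 5 months beside each; lists differ in size and no list was tested as a set. Plasma cell (-1.29), effector T cell (-1.17) and germinal centre (-1.15) lists have the most negative medians with calls, the exocrine pancreas list the most positive, with 0 calls.

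Few transcripts of the lists upstream and downstream of mTOR passed. Of 72 ribosomal protein genes, whose translation depends on complex 1, limma, edgeR and DESeq2 called 0, and 0 reached an unadjusted p under 0.05 (median 0.01). Of 27 activators and 18 inhibitors of complex 1, limma, edgeR and DESeq2 called 0, with medians of 0.01 and 0.04, and 2 of each reached an unadjusted limma p under 0.05. Of 21 substrates and effectors limma and edgeR called 0 and DESeq2 1 (5 at an unadjusted limma p under 0.05, median 0.07). Rps6 differed by -0.04 and Eif4ebp1 by 0.00. Of 26 ribosome biogenesis genes limma and edgeR called 0 and DESeq2 2, both lower (6 lower and 2 higher at an unadjusted limma p under 0.05), with a median of -0.15 and 18 below 0. Their sum lay between 60881 and 78285 in WT and between 45272 and 50322 in mTOR, without overlap. Of 14 translation factors whose mRNAs carry TOP motifs limma and edgeR called 0 and DESeq2 2, both lower (2 lower and 0 higher at an unadjusted limma p under 0.05), with a median of -0.19 and 10 below 0. Their sums, 146430 to 178060 in WT and 124950 to 140050 in mTOR, did not overlap either. The means of their log2 values did, with mTOR replicate 3 at 12.36 and WT replicate 2 at 12.32. In the old animals both sums overlapped. They were 48763 to 56456 in WT and 42429 to 53161 in mTOR for ribosome biogenesis. For the translation factors they were 117720 to 143110 in WT and 111220 to 157740 in mTOR. Cholesterol synthesis genes (22, median -0.14) had 0 calls by limma, edgeR or DESeq2 and 0 at an unadjusted p under 0.05, and of 29 lysosome genes (median -0.14) limma and edgeR called 0 and DESeq2 1 (4 at an unadjusted limma p under 0.05). RNA levels do not show translation or phosphorylation.

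Single members of metabolic lists passed. Slc7a11, the cystine importer and a target of the amino acid response factor ATF4, fell from 561, 707 and 582 to 301, 265 and 186 (log2 -1.32 ± 0.18, limma adjusted p = 0.00301) and held. Its list of 28 ATF4 targets had 1 call but a median of -0.49, with 15 lower and 0 higher at an unadjusted limma p under 0.05 and 8 lower by DESeq2. Bcat1, which breaks down branched-chain amino acids, fell from 55.4, 94.1 and 113 to 12.4, 5.56 and 12.7 (log2 -2.996, limma adjusted p = 0.00281) and held. Of 24 glycolysis and hypoxia genes 2 were called higher and 0 lower (2 by edgeR, and 3 higher and 1 lower by DESeq2), while the median was -0.16, with 14 below 0 and 7 lower against 3 higher at an unadjusted limma p under 0.05. Pdk1, a kinase that closes the entry to the citric acid cycle, rose by 0.73 (limma adjusted p = 0.0312) and the glucose transporter Slc2a3 by 0.47 (0.0464). The autophagy genes Atg5 and Wipi1 fell by 0.60 and 0.75 (limma adjusted p = 0.0366 and 0.0403), 2 of 30. The list did not lean lower, with a median of 0.07 and 16 above 0. At an unadjusted limma p under 0.05, 2 were higher and 2 lower. edgeR called 0 higher and 2 lower, and DESeq2 called 1 higher and 2 lower. Over all genes compared limma called 1.37% lower.

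Pdk1, Slc2a3, Atg5 and Wipi1 did not hold. Slc2a3 lost the call whichever library was left out (up to 0.18). Pdk1 lost it without WT replicate 1 or any mTOR replicate (up to 0.137), Atg5 in all but the fit without WT replicate 3 (up to 0.146) and Wipi1 in all but the fit without WT replicate 2 (up to 0.132). Atg5 (0.071) and Slc2a3 (0.088) were also lost with the young spleens alone, Wipi1 (0.0526) and Slc2a3 (0.0704) without the filter on low values, and Slc2a3 (0.0545) with upper-quartile scaling. The same filter setting ended the call of Ighm (0.0527).

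Cell cycle genes leaned lower without a call. All 29 were below 0, with a median of -1.005, but limma and edgeR called 0 and DESeq2 5, and 15 were lower and 0 higher at an unadjusted limma p under 0.05. Their sum was 17101, 23093 and 18919 in WT and 7861, 5796 and 14788 in mTOR, without overlap, and mTOR replicate 3 lay nearest to WT. The sum is weighted by the most abundant genes. The mean of their log2 values did overlap, with mTOR replicate 3 at 8.19 and WT replicate 1 at 8.17. Mki67, the proliferation marker, was at 3834, 6407 and 4357 in WT and at 1790, 933 and 4167 in mTOR (log2 -1.31, limma adjusted p = 0.314). Mitotic genes outside the list did pass: Cep55, of cell division, fell from 226, 237 and 242 to 67.4, 78.8 and 56.1 (log2 -1.80, limma adjusted p = 0.00155), and Cdca2, a mitotic chromatin factor, by 1.78 (0.00674). Both held, and both were chosen after their values were seen. In the old animals the cell cycle list had a median of -0.14. Its sums overlapped there, with 12917 to 14686 in WT and 5452 to 28031 in mTOR.

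Exocrine pancreas genes were the list with the widest spread, as given above: 0 of 14 were called by limma, edgeR or DESeq2 and 0 reached an unadjusted p under 0.05, and mTOR replicates 1 and 3 were high while mTOR replicate 2 was lowest. With the mean of that list as a covariate, added after its spread was seen, 196 genes were called, 38 higher and 158 lower. Of the 59 named genes called, 50 stayed called, and those that did not include Pxdn, Ighg1, Atg5, Wipi1, Pdk1, Slc2a3, Oas1a and Cd34 (limma adjusted p from 0.0533 to 0.0845). Erythroid genes summed to between 7772 and 26252 in WT and between 10236 and 44771 in mTOR, with 0 of 20 called by limma, edgeR or DESeq2 and 0 at an unadjusted p under 0.05.

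Genes close to Mtor were called more often than the rest. Within 5 Mb of Mtor, 18 of 79 genes (22.8%) were called, 10 higher and 8 lower, against 266 of 15387 (1.73%) elsewhere, and within 10 Mb 22 of 190. All 18 lay between -3.21 Mb (Tnfrsf8) and 0.739 Mb (Kif1b) from Mtor, and chromosome 4 as a whole had 35 of 940 (3.72%). Zfp990, a zinc finger gene at -2.98 Mb from Mtor (chromosome 4, 145510759 to 145539188, plus strand), was at 1.11, 2.14 and 2.24 in WT, which is 1 or 2 reads each, and at 492, 442 and 477 in mTOR. Its log2 difference of 7.40 ± 0.27 (limma adjusted p = 8.43e-09), the largest of all, depends on the added 1. The lncRNA gene C230088H06Rik was at 22.2, 10.7 and 8.97 in WT and 258, 319 and 185 in mTOR (log2 4.16, limma adjusted p = 0.000465).

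Other genes of the zinc finger cluster there went up (Zfp985, Zfp534) or down (Zfp984, Zfp933), and such genes are close copies among which reads may be shared. Zfp534 held, as did Zfp990 and C230088H06Rik. Zfp985 passed only without WT replicate 1 (up to 0.155) and Zfp933 only without WT replicate 3 (up to 0.104), and Zfp984 lost the call without mTOR replicate 1 (0.0714) or 3 (0.0809). With the young spleens alone Zfp985 (0.0676), Zfp984 (0.0562), Kif1b (0.0562) and Tnfrsf8 (0.0781) were lost. Tnfrsf8 and the pseudogene Znf41-ps lost the call whichever library was left out (up to 0.0899 and 0.116). Non-zinc-finger genes nearby included Mfn2, of mitochondrial fusion, which fell by 0.81 (limma adjusted p = 0.00645), the chloride transporter Clcn6, which rose by 1.05 (0.00612), the axon guidance gene Draxin, which fell by 2.32 (0.00502), and the kinesin Kif1b, which rose by 0.65 (0.023). The first 3 held, and Kif1b passed only without WT replicate 2 (up to 0.117). These neighbours other than Zfp990 were chosen for their position. In the old animals all 18 had the same sign, as had 276 of all 284 called genes. The cause of these differences was not tested.

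**Figure D4:**
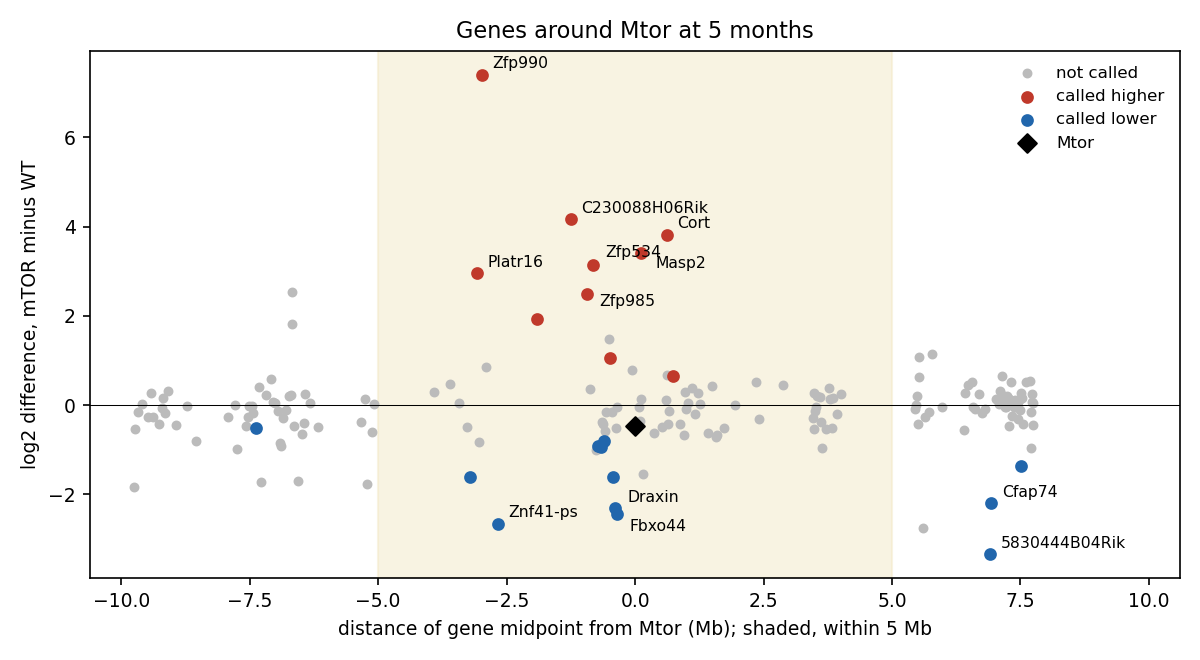
Log2 difference at 5 months, mTOR minus WT, of genes within 10 Mb of Mtor, by distance from Mtor in Mb; coloured points are called genes and the shaded band is 5 Mb to each side. The 18 called genes in the band lie from -3.21 Mb to 0.739 Mb, with Zfp990 at 7.40.

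The old animals, which share no mouse with the young groups, gave a second measure of the same genes. Limma called 281 genes there (1.81%), 126 higher and 155 lower. Of the 284 called at 5 months, 104 (36.6%) were called in the old, 28 higher and 76 lower, all with the same sign, which is 37% of the old calls. With the 6 old spleens alone the 104 became 35. In sign alone, 276 of the 284 matched. The share of matching signs over all genes compared was not counted. Over all of them the log2 differences at the 2 ages had a Pearson correlation of 0.52. The genes called higher had a median of 1.06 at 5 months and 0.86 in the old, and those called lower -1.19 and -0.77. The genes were chosen by their values at 5 months, so the sizes at the 2 ages are not on an equal footing.

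Of the genes described above, Gzmk (log2 -3.15, limma adjusted p = 0.0183), Il21 (-3.50, 0.0179), Lag3 (-1.61, 0.00149) and Cd209b (2.73, 0.0045) were called there as well, and Hsp90b1 too (-1.26, 0.00869). Ighg2b (-1.39, limma adjusted p = 0.165), Ighg2c (-2.58, 0.106), Jchain (-0.92, 0.087) and Fcgr4 (-0.80, 0.366) were not. The difference of the genotype effect between ages was tested for every gene and none passed in limma, edgeR or DESeq2 (0%), with 850, 931 and 942 genes at an unadjusted p under 0.05 and a smallest limma adjusted p of 0.787. For Ighg2b it was -2.15 ± 0.67, for Eaf2 -1.40 ± 0.36 and for Wipi1, which overlapped between genotypes in the old, -0.80 ± 0.24 (limma adjusted p = 0.787 for each).

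**Figure D5:**
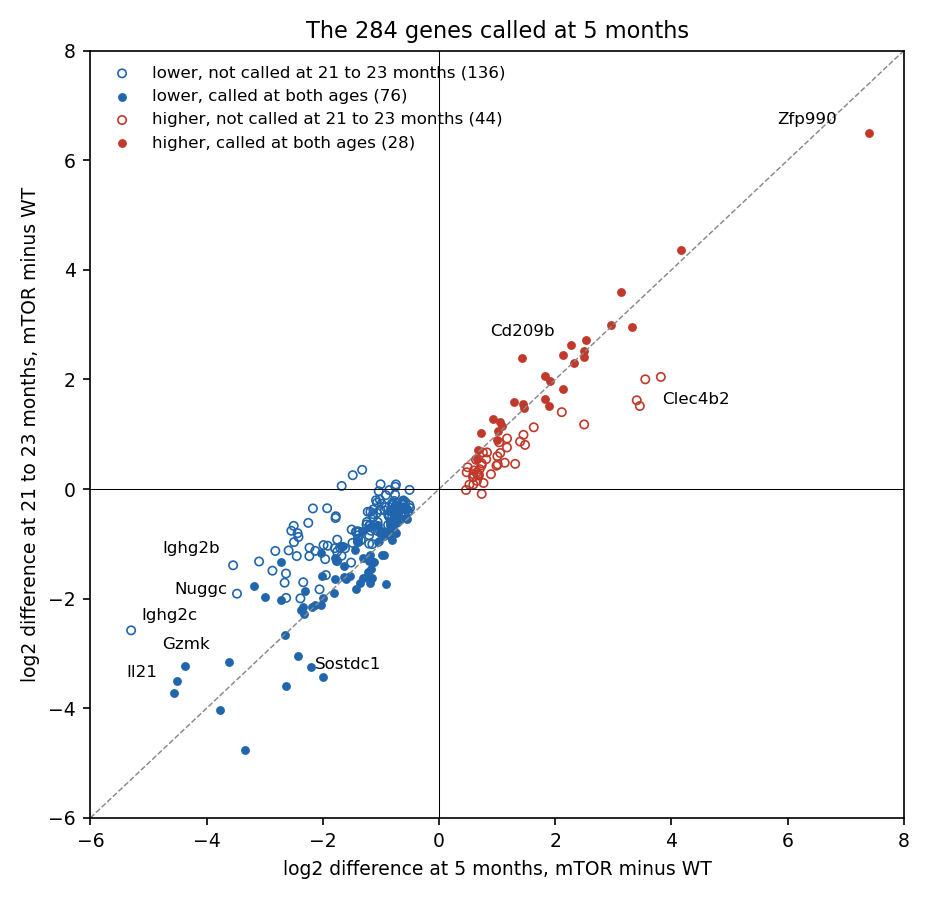
Log2 difference, mTOR minus WT, at 5 months (x axis) and at 21 to 23 months (y axis) for the 284 genes called at 5 months; colours mark the 76 lower and 28 higher genes called at both ages, and the 136 lower and 44 higher called at 5 months alone. In 276 of the 284 both differences have the same sign.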

How the data were processed

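RNA of flash-frozen spleen was sequenced from TruSeq libraries, per the labels. The deposited values are a normalized signal, in which the authors scaled the read counts of every gene by a factor particular to its library. Software named in the submitters' processing notes includes HISAT2 2.1.0 for reads on the mouse build GRCm38, bcl2fastq 2.20 and DESeq2. The read counter and annotation are not given in the sources used here. All values were whole multiples of 1 step within 0.01, so reads were recovered.

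Here limma 3.58.1 (R 4.3.3, mean-variance trend, 2-sided) was fitted to log2 of the value plus 1 with 4 group means, and edgeR 4.0.16 and DESeq2 1.42.0 to the recovered reads. WT and mTOR animals with adjacent numbers were not treated as pairs, since the labels do not give the meaning of the numbers. Named genes were Mtor, the mTOR complexes, the 12 largest called differences each way with a mean of at least 50, leaving out predicted genes, variable segments, pseudogenes and sex-linked markers, and up to 4 called members of smallest p of each of 54 lists. Members and lists were chosen with earlier results of these data known. Positions come from GENCODE M21 and start-site windows from RefSeq, with 1 window per gene. Libraries of 1 group differed by 2.30 to 3.31 times the sampling variance in genes of few reads, so none was a repeat. Intervals from few reads are wide, and 3 animals per group limit the precision. Some named genes are not reported here.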

Additional observations from a re-analysis of the deposited data

How the results depend on the processing

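The 284 calls became 910 with DESeq2 (273 higher, 637 lower) and stayed within 1.5 times of 284 with edgeR, other pseudocounts (0.5 and 5), other filters, upper-quartile scaling, the young spleens alone, edgeR with the replicate block and the pancreas covariate. The last 2 settings were chosen after seeing the data, and they moved the 72 higher calls to 46 and 38. Leaving out 1 library gave 95 to 382 calls, 17 to 174 higher and 75 to 264 lower. Mtor kept its direction throughout, and passed with DESeq2 alone (-0.48). The 104 calls shared with the old animals became 35 with the 6 old spleens alone. Leaving out 1 library turned the sign for Mlst8 (-0.0874 without WT replicate 1 to 0.4845 without WT replicate 2), Akt1s1 (-0.0119 without WT replicate 2 to 0.336 without WT replicate 3), Prr5 (-0.2506 without WT replicate 1 to 0.0867 without WT replicate 3) and Prr5l (-0.2513 without WT replicate 3 to 0.0404 without WT replicate 2). The cause was not tested. Pairing WT with mTOR animals by adjacent numbers, the replicate block, gave 62 higher and 209 lower calls. Deviations of such pairs correlated at -0.233, -0.135 and 0.023 in the young and -0.023, 0.043 and 0.065 in the old. None of these correlations was above 0.1, while those of -0.233 and -0.135 were negative and larger than 0.1 in size. The animals were not treated as pairs. The labels do not give the meaning of the numbers. Of 1171 values of named genes under these settings 1023 kept their direction and side of the threshold, 141 lost the call, 1 gained it and 6 turned sign. Of 61 list medians 17 changed sign under at least 1 setting, among them those of the mTOR complexes, ribosomal proteins, general B cell genes, autophagy and the exocrine pancreas. At this depth genes of a few reads are measured with wide error.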
